A study of Danio rerio with 12 samples.

Results

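Messenger RNAs of 5 genes that mark young neurons were followed through 6 experiments in which cells of whole zebrafish (Danio rerio) were sorted by green fluorescence. The 5 genes, elavl3, elavl4, stmn1b, gap43 and atp1a3a, were taken by name from the 32312 gene rows that each of the 6 deposited tables lists, and all 5 were present in every table. Each experiment gave 1 library of GFP-positive cells, sorted as catecholaminergic neurons, and 1 library of GFP-negative cells of the same fish, so each group held 1 library and no group had a replicate.

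The cells came from fish of 4 transgenic designs and 5 ages, and within an experiment both sorts carried the same transgene. ETvmat2:GFP, an enhancer trap whose name refers to the vesicular transporter of monoamines, was sorted at 24 h after fertilization, as was Tg(otpb.A:egfp)zc48, a reporter built on regulatory sequence of the transcription factor gene otpb. Fish with a th:Gal4VP16 driver and a UAS:EGFP responder, in which tyrosine hydroxylase regulatory sequence drives the fluorescence through an activator, were sorted at 36 h and 48 h. Fish with a th:GFP BAC, a large genomic construct, were sorted at 72 h and 96 h. The 24 h libraries were made from total RNA by NanoCAGE (sequencing from the cap site at the 5′ end), and the others by sequencing of amplified mRNA. Line, age and assay change together between these sets and cannot be told apart.

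A neuron leaves the cell cycle and then switches on a common set of genes whatever transmitter it will use. The Elavl (Hu) RNA-binding proteins stabilise and splice neuronal transcripts, and Elavl3 (HuC) is among the earliest markers of postmitotic neurons in the fish. Stathmin 1b belongs to a family that regulates microtubule turnover, Gap43 is a growth cone protein of extending axons, and Atp1a3a is the neuronal catalytic subunit of the sodium-potassium pump, which restores the ion gradients that firing uses up. GFP-negative cells of a whole fish include all neurons outside the reporter's pattern as well as every other tissue, so the comparison asks whether these transcripts made up more of the RNA of the reporter-positive cells than of the rest of the animal.

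The depth of the libraries set what could be seen. Exon reads ran from 495373 to 1367216 in the 24 h libraries, from 21326333 to 27682819 at 36 h and 48 h, and from 52869 to 79653 at 72 h and 96 h. The 5 genes summed to 13480 to 35162 reads in each 36 h or 48 h library, to 235 to 310 at 24 h, and to 48 to 88 at 72 h and 96 h. Intervals given here are exact 95% intervals and cover counting error only, not the spread between fish or preparations. Outside the vmat2:GFP experiment the reads were recovered from the columns of the authors' deposited tables that compare the sorts, with the direction that the vmat2:GFP table shows, and every direction of a table would turn if it followed the opposite one. Summed transcripts of a catecholaminergic marker list (5 matched names, th and dbh among them) went the labelled way in each of the 6 experiments, with 24 against 0 reads (GFP-positive against GFP-negative) for vmat2:GFP, 6 against 0 for otpb:GFP, 355 against 57 at 36 h, 604 against 137 at 48 h, 38 against 0 at 72 h and 22 against 0 at 96 h. By gene, 2 of 5 were higher in the positive library for vmat2:GFP and for otpb:GFP, where th2, ddc and dbh had 0 reads. It was 3 of 5 at 36 h, 5 of 5 at 48 h and at 72 h, and 3 of 5 at 96 h. At 36 h th2 and slc18a2 went the other way, with 0 reads in the positive library only.

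The annotation of Zv9, the genome build that the vmat2:GFP table names, places the 5 genes at separate loci. The gene elavl3 lies on chromosome 3 from 46839385 to 46855969 with 14 exons of 3402 bases in all, and elavl4 on chromosome 8 from 16523554 to 16632414 with 18 exons of 3630 bases. The gene atp1a3a lies on chromosome 19 from 6950528 to 7007888 with 21 exons of 5379 bases. The gene gap43 sits on the unplaced scaffold Zv9_NA963 from base 1 to 14235, with 3 exons of 1056 bases, and thus begins at the scaffold's edge. The gene stmn1b, on chromosome 16 from 37064927 to 37068618 with 5 exons of 1687 bases, is the one whose span overlaps others: paqr7b (37064389 to 37074300) and the unnamed model ENSDARG00000091274 (37066051 to 37067655).

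The placing of its reads bears on every stmn1b value. In the vmat2:GFP table only 1 of 78 stmn1b exon reads of the GFP-negative library and 3 of 20 of the GFP-positive library were listed as uniquely placed. In the negative library, stmn1b was among the 1.29% of genes with at least 20 reads of which fewer than 10% were unique. The other members were placed uniquely, with 186 of 186 and 116 of 116 reads for elavl3, 10 of 10 and 33 of 33 for elavl4, 24 of 25 and 38 of 41 for gap43, and 11 of 11 and 65 of 66 for atp1a3a. The counting gave paqr7b at most 1 read in any of the 12 libraries and the unnamed model at most 8, so nearly all reads at the locus were booked to stmn1b. Which transcripts the other reads came from was not tested, and stmn1b values are uncertain for that reason.

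The early pan-neuronal gene elavl3 was no higher in sorted reporter-positive cells than in the remaining cells in 5 of the 6 experiments. For vmat2:GFP at 24 h it had 186 GFP-negative and 116 GFP-positive reads, or 28.5 and 22.8 RPKM (reads per kilobase of exon, set against the size of the library). For otpb:GFP it had 189 and 115 reads, or 22.0 and 42.8 RPKM, the one pair in which the GFP-positive level was the higher. In bulk libraries such as these, fewer cells of a type and less RNA per cell cannot be told apart.

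At 36 h elavl3 had 17259 GFP-negative and 8285 GFP-positive reads (157.3 and 74.0 RPKM), and at 48 h 19994 and 8415 (171.5 and 80.3 RPKM). Both GFP-negative libraries of these fish lay above both GFP-positive ones, and no interval met another. At 72 h it had 9 and 2 reads (27.9 and 8.21 RPKM) and at 96 h 15 and 4 (50.8 and 13.7 RPKM), where the intervals of neighbouring levels overlapped throughout.

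Ratios of GFP-positive over GFP-negative are given on the log2 scale after TMM scaling, which sets a trimmed mean of the gene ratios in a pair level. For single genes a prior count of 2 draws the ratio towards 0, while the intervals and the ratios of sums use none. The gap is wide at low depth: elavl3 at 72 h was -1.22 with the prior count and -1.81 without, and elavl4 2.04 and 2.69. For elavl3 the ratio was -0.95 for vmat2:GFP (interval -1.31 to -0.62) and 0.31 for otpb:GFP (interval -0.03 to 0.66). By library size alone the otpb:GFP ratio was 0.74 (interval 0.40 to 1.09), so whether its interval takes in 0 depends on the scaling. With TMM scaling elavl3 was at -0.41 at 36 h (interval -0.45 to -0.37) and -1.24 at 48 h (interval -1.28 to -1.20). At 48 h only 3.15% of the 10030 genes above the minimum had a lower ratio, which puts elavl3 among the genes most reduced in the th:Gal4 positive cells. The minimum was at least 5 CPM (reads scaled to a common library size) and 20 reads in the library with the higher level. After TMM scaling the median gene above it still lay at -0.44 for otpb:GFP and at -0.36 at 72 h. For otpb:GFP 74.6% of genes above the minimum had a lower ratio than elavl3. The 72 h ratio of -1.22 (interval -5.05 to 0.47) and the 96 h ratio of -1.69 (interval -4.20 to -0.50) rest on 2 and 4 GFP-positive reads and fell below that minimum.

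**Figure D1:**
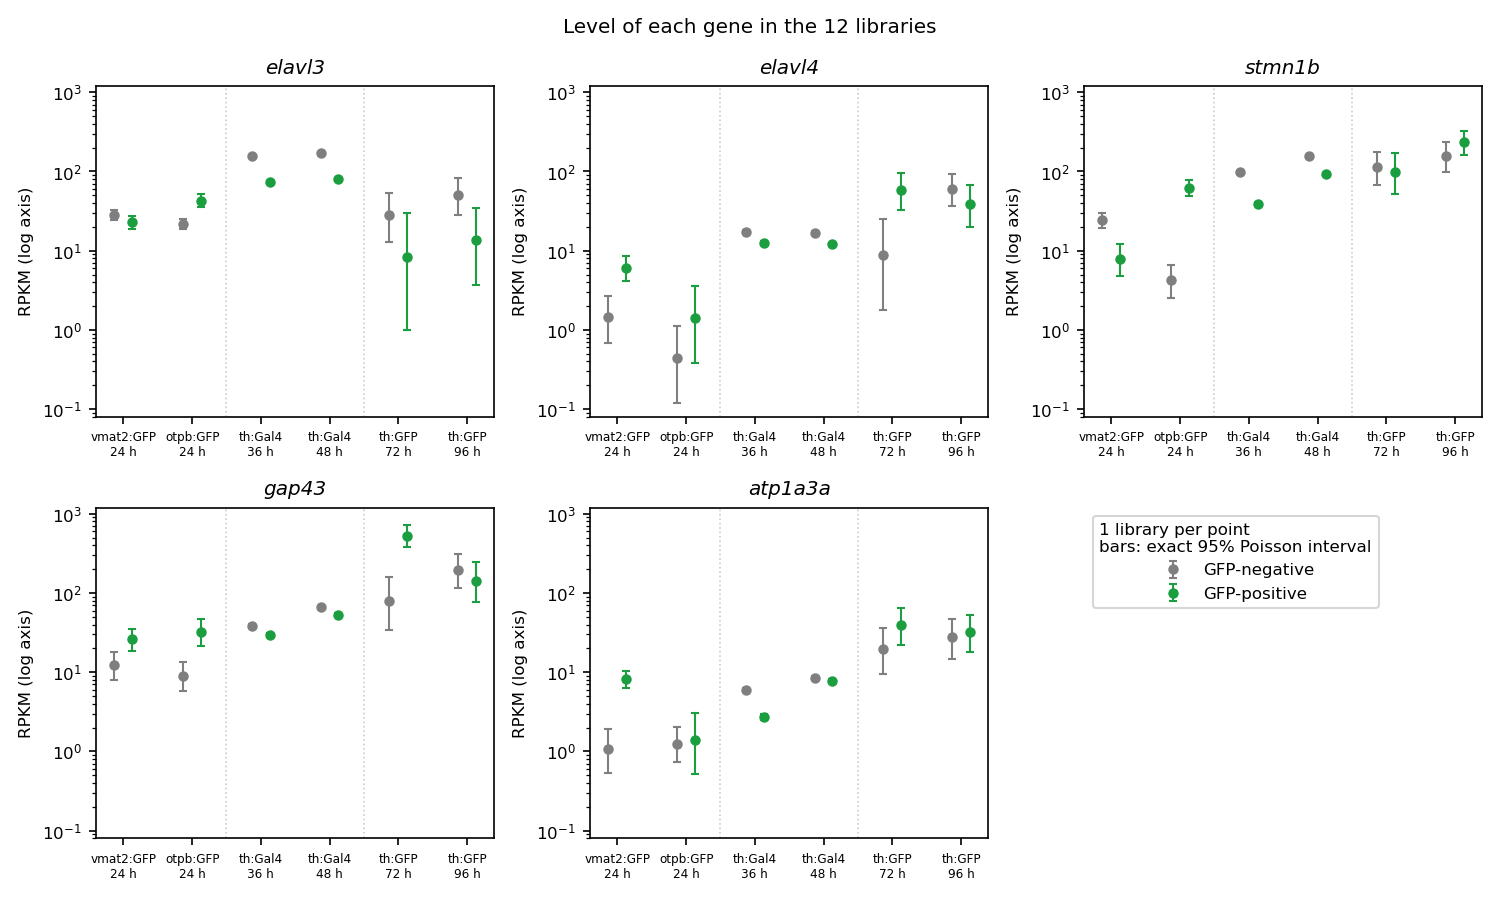
RPKM of each gene on a log axis in the 6 GFP-negative (grey) and 6 GFP-positive (green) libraries, with exact 95% Poisson intervals of the reads as bars; dotted lines part the 24 h NanoCAGE, 36 h and 48 h th:Gal4 and 72 h and 96 h th:GFP sets. The grey elavl3 points at 36 h and 48 h stand at 157.3 and 171.5 RPKM above green points at 74.0 and 80.3, and the gap43 point of the 72 h GFP-positive library stands highest, at 528.9.

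The second Hu gene, elavl4 (HuD), which is expressed in postmitotic neurons and best known for its part in neurite growth, did not follow elavl3. In the vmat2:GFP experiment it had 10 GFP-negative and 33 GFP-positive reads (1.44 and 6.08 RPKM). Its log2 ratio there was 1.30 (interval 0.39 to 2.63), while that of elavl3 was -0.95, so the intervals of the 2 Hu genes lay on opposite sides of 0 in the same pair of libraries. By library size alone elavl4 was at 1.86 and elavl3 at -0.32, with an elavl3 interval that took in 0 (-0.67 to 0.02). For otpb:GFP it had 4 and 4 reads (0.437 and 1.40 RPKM), too few to give a direction (0.70, interval -1.39 to 3.46).

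At 36 h elavl4 had 2030 GFP-negative and 1495 GFP-positive reads (17.3 and 12.5 RPKM), and at 48 h 2096 and 1340 (16.8 and 12.0 RPKM). In RPKM both negative libraries lay above both positive ones, and the 36 h and 48 h levels of the same sort overlapped. The 36 h log2 ratio was 0.21 (interval 0.11 to 0.30) with TMM scaling but -0.54 by library size alone, so its direction at 36 h depends on the scaling, and at 48 h it was -0.63 (interval -0.74 to -0.54).

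At 72 h elavl4 had 3 GFP-negative reads (8.72 RPKM) and 15 GFP-positive reads (57.7 RPKM), a log2 ratio of 2.04 (interval 0.87 to 5.12). At 96 h it had 19 and 12 reads (60.3 and 38.4 RPKM), with a ratio of -0.80 whose interval (-2.08 to 0.21) takes in 0. The 72 h GFP-negative library was the lowest of the th:GFP set, although its interval of 1.80 to 25.5 RPKM met that of the library next in order.

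Among cytoskeletal members stmn1b gave the widest swings, on the uncertain reads described above. It had 78 GFP-negative and 20 GFP-positive reads for vmat2:GFP (24.1 and 7.93 RPKM) and 18 and 83 for otpb:GFP (4.23 and 62.3 RPKM). The log2 ratios were -2.12 (interval -3.03 to -1.52) and 3.06 (interval 2.49 to 4.06). In the first pair 3.01% of genes above the minimum had a lower ratio than stmn1b, and in the second 99.2% had one, so the same gene stood near opposite ends of the 2 experiments at one age. Counting only the uniquely placed vmat2:GFP reads, 1 against 3, leaves no direction.

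At 36 h stmn1b had 5316 GFP-negative and 2189 GFP-positive reads (97.7 and 39.4 RPKM), and at 48 h 9122 and 4870 (157.7 and 93.7 RPKM). Both sorts were higher at 48 h than at 36 h, and within each age the negative library was the higher, with log2 ratios of -0.63 (interval -0.71 to -0.56) and -0.89 (interval -0.95 to -0.84). At 72 h it had 18 and 12 reads (112.5 and 99.3 RPKM) and at 96 h 23 and 34 (157.0 and 234.2 RPKM), with log2 ratios of -0.19 (interval -1.41 to 0.91) and 0.30 (interval -0.49 to 1.15) that were not distinguishable from 0 at this depth.

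The growth cone gene gap43 was at least 2-fold higher in GFP-positive cells of otpb:GFP and of th:GFP at 72 h. It had 25 GFP-negative and 41 GFP-positive reads for vmat2:GFP (12.3 and 26.0 RPKM) and 24 and 27 for otpb:GFP (9.01 and 32.4 RPKM). Both GFP-positive NanoCAGE libraries thus stood above both GFP-negative ones in RPKM, with log2 ratios of 0.41 (interval -0.32 to 1.22) and 1.12 (interval 0.35 to 2.06).

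At 36 h gap43 had 1306 and 1027 reads (38.4 and 29.5 RPKM), and at 48 h 2388 and 1729 (66.0 and 53.2 RPKM). Its log2 ratio was 0.30 at 36 h (interval 0.18 to 0.42), which became -0.44 by library size alone, and -0.45 at 48 h (interval -0.55 to -0.37). At 72 h it had 8 GFP-negative and 40 GFP-positive reads (79.9 and 528.9 RPKM), a ratio of 2.39 (interval 1.57 to 3.99), and 99.0% of the 415 genes above the minimum had a lower one. At 96 h it had 18 and 13 reads (196.3 and 143.0 RPKM) and a ratio of -0.63 (interval -1.87 to 0.40), so the 72 h difference was not seen at the later age in the same line.

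The pump subunit gene atp1a3a was higher in the GFP-positive cells of vmat2:GFP, with 11 GFP-negative and 66 GFP-positive reads (1.07 and 8.21 RPKM) and a log2 ratio of 2.14 (interval 1.38 to 3.38). For otpb:GFP it had 17 and 6 reads (1.25 and 1.41 RPKM), a ratio of -0.40 (interval -2.10 to 0.94). The vmat2:GFP positive library therefore stood alone above the other NanoCAGE libraries, whose intervals overlapped one another.

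At 36 h atp1a3a had 1029 and 484 reads (5.93 and 2.73 RPKM), and at 48 h 1562 and 1289 (8.47 and 7.78 RPKM). The log2 ratios were -0.44 (interval -0.60 to -0.28) and -0.27 (interval -0.37 to -0.16), both below 0 and neither 2-fold. At 72 h it had 10 and 15 reads (19.6 and 38.9 RPKM) and at 96 h 13 and 15 (27.8 and 32.4 RPKM), with ratios of 0.82 and -0.03 whose intervals, -0.30 to 2.27 and -1.21 to 1.15, take in 0.

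**Figure D2:**
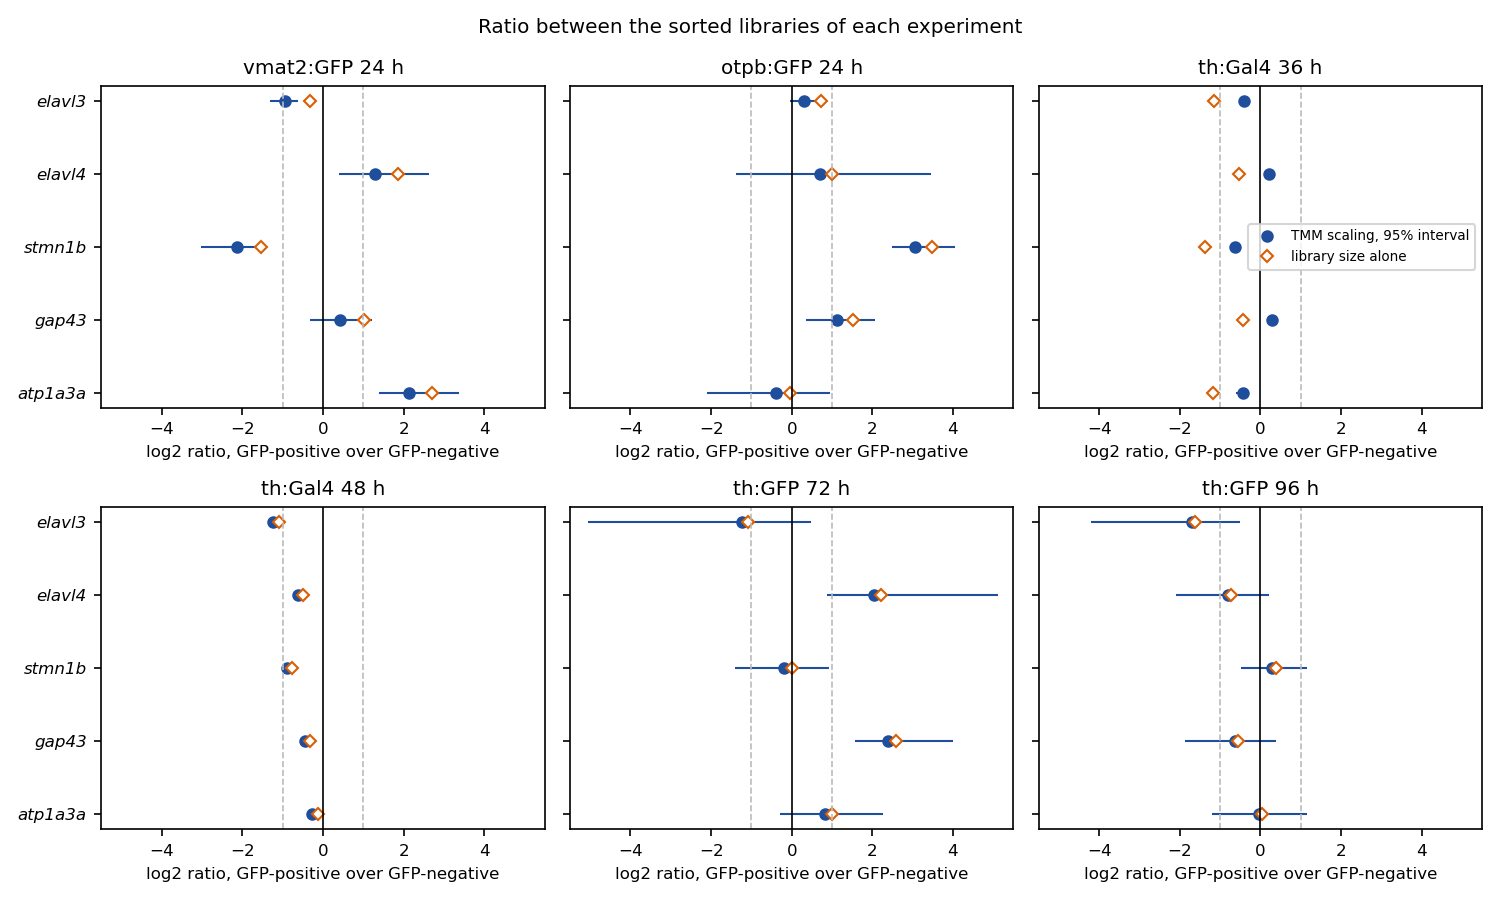
Log2 ratio of GFP-positive over GFP-negative reads for each gene in each experiment: filled circles with bars are TMM scaled ratios with exact 95% counting intervals, open diamonds are ratios by library size alone, and dashed lines mark 2-fold. At 36 h the diamonds of elavl4 and gap43 lie at -0.54 and -0.44 while their circles lie at 0.21 and 0.30; stmn1b reaches -2.12 for vmat2:GFP and 3.06 for otpb:GFP.

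No experiment moved all 5 genes 2-fold in one direction. For vmat2:GFP all 5 passed the minimum, 2 were at least 2-fold higher (elavl4, atp1a3a) where 24.9% of the 6303 genes were, and 1 was at least 2-fold lower (stmn1b) where 15.7% were. For otpb:GFP 3 passed and 2 of them (stmn1b, gap43) were higher, with 10.2% of the 4666 genes higher and 25.8% lower. At 36 h all 5 passed and 0 were 2-fold in either direction, beside 13.9% of the 9935 genes higher and 10.4% lower. At 48 h all 5 passed, 0 were higher beside 17.6% and 1 (elavl3) was lower beside 6.53%. At 72 h gap43 was the only one to pass and was higher, beside 5.06% of the 415 genes higher and 22.7% lower. At 96 h stmn1b alone passed and was neither, beside 3.73% of the 456 genes higher and 7.02% lower. Some genes reached 20 reads in the GFP-positive library alone. For vmat2:GFP these were elavl4 (10 and 33 reads) and atp1a3a (11 and 66). For otpb:GFP it was stmn1b (18 and 83), and at 72 h gap43 (8 and 40). For them passing the minimum and being higher are tied. The same minimum set the shares over all genes and the counts of the related lists.

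The median log2 ratio of the 5 genes, whatever their depth, was 0.41 for vmat2:GFP beside 0.10 for all genes above the minimum, and 0.70 for otpb:GFP beside -0.44. It was -0.41 at 36 h beside -0.09, -0.63 at 48 h beside -0.08, 0.82 at 72 h beside -0.36 and -0.63 at 96 h beside -0.06. Of the 5 genes 3 passed the minimum for otpb:GFP and 1 at 72 h and at 96 h, so there the medians compare unlike sets. The 72 h median is that of atp1a3a, on 10 and 15 reads, and the otpb:GFP one that of elavl4, on 4 and 4. With TMM scaling 48 h was the one experiment in which the intervals of all 5 genes lay on the same side of 0, below it, and by library size alone they lay below 0 at 36 h as well.

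Scaling moved these ratios most at 36 h. TMM scaling raised every 36 h ratio by 0.74 over library size alone, and by library size 3 genes (elavl3 at -1.15, stmn1b at -1.37 and atp1a3a at -1.18) passed 2-fold on the lower side. The median of all genes at 36 h was itself -0.82 by library size. In the other experiments TMM scaling lowered the ratios instead, with a shift of 0.63 for vmat2:GFP, 0.43 for otpb:GFP, 0.14 at 48 h, 0.23 at 72 h and 0.10 at 96 h.

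Summed reads tell how much of a library the 5 transcripts made up, a share that also depends on the features with most reads. The top 4 features took 56.2% of the negative and 34.4% of the positive library for vmat2:GFP, and 56.8% and 43.5% for otpb:GFP. In the 36 h to 96 h libraries they took 4.51% to 14.8%. The 24 h shares and the 24 h ratios by library size alone therefore also move with those features. The sum was 310 GFP-negative and 276 GFP-positive reads for vmat2:GFP (0.0264% and 0.0301% of exon reads) and 252 and 235 for otpb:GFP (0.0184% and 0.0474%). It was 26940 and 13480 at 36 h (0.126% and 0.0592%) and 35162 and 17643 at 48 h (0.127% and 0.0705%). In the th:Gal4 fish the share was thus about the same in both negative libraries and lower in both positive ones. In the th:GFP fish it was 48 and 84 reads at 72 h (0.0603% and 0.159%) and 88 and 78 at 96 h (0.138% and 0.111%).

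After TMM scaling the log2 ratio of the sum was 0.93 for otpb:GFP (interval 0.67 to 1.19) and -0.98 at 48 h (interval -1.01 to -0.96). It was -0.44 for vmat2:GFP (interval -0.68 to -0.21), -0.35 at 36 h (interval -0.38 to -0.32), 1.17 at 72 h (interval 0.64 to 1.72) and -0.42 at 96 h (interval -0.88 to 0.04). The vmat2:GFP sum changed direction to 0.19 by library size alone and had an interval that took in 0 without stmn1b (-0.13, interval -0.40 to 0.13). Without stmn1b the otpb:GFP sum was 0.41 (interval 0.10 to 0.71), and without gap43 the 72 h sum was 0.50 with an interval of -0.15 to 1.16. Without stmn1b the 96 h sum was -0.81 with an interval of -1.39 to -0.23 that no longer took in 0. The size or direction of those 4 sums therefore rests on single genes.

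**Figure D3:**
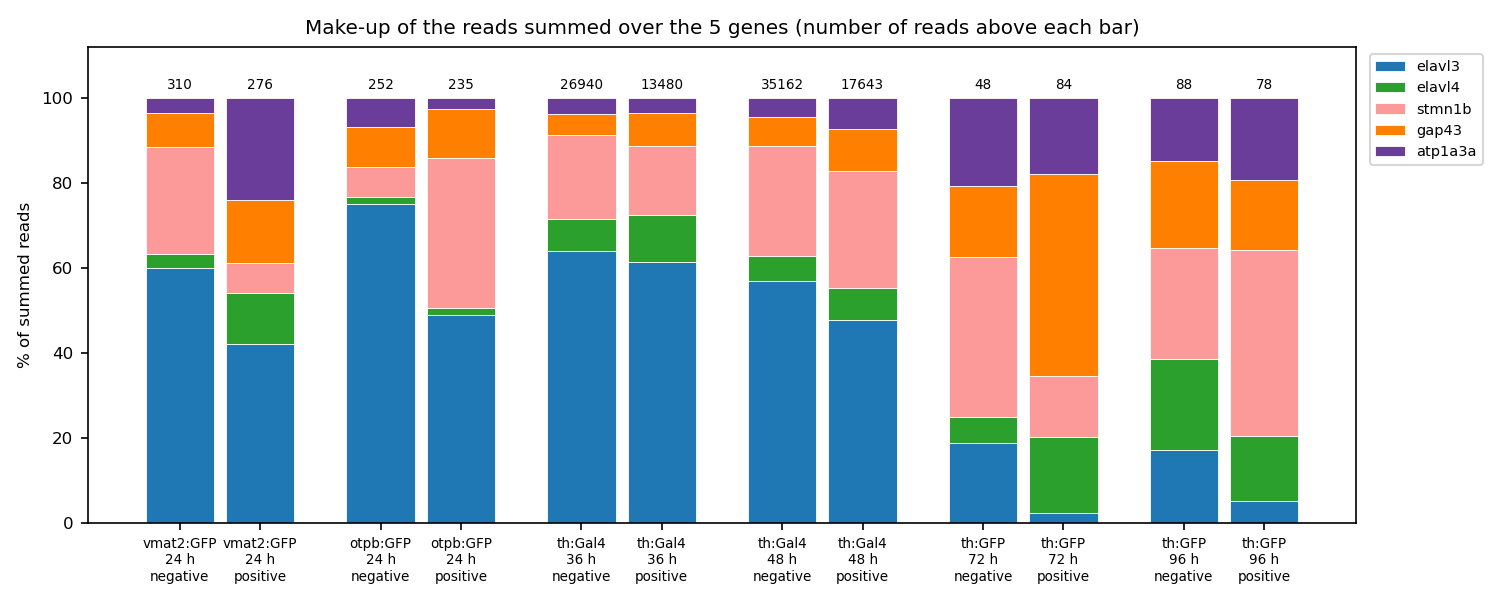
Share of each gene in the reads summed over the 5 genes, in percent, for the 12 libraries, with the number of summed reads above each bar. The elavl3 share (bottom) is the lower in the GFP-positive bar of every pair, from 75.0% to 48.9% for otpb:GFP and from 18.8% to 2.38% at 72 h.

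Within the sum the elavl3 share was lower in the GFP-positive library of every experiment. It went from 60.0% of summed reads in the negative to 42.0% in the positive library for vmat2:GFP, from 75.0% to 48.9% for otpb:GFP, from 64.1% to 61.5% at 36 h, from 56.9% to 47.7% at 48 h, from 18.8% to 2.38% at 72 h and from 17.0% to 5.13% at 96 h. This led, after the values had been seen, to a comparison of each other gene with elavl3 inside a library, which needs no scaling between libraries. All 4 of these ratios share the elavl3 reads and are not independent of one another. The elavl3 share had already been seen to fall in every experiment, so the other genes together had to gain on elavl3. A gain by a single gene in many experiments is thus partly built in.

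Reads of elavl4 per elavl3 read were higher in the GFP-positive library in 6 of 6 experiments. The change was 5.29-fold for vmat2:GFP (interval 2.42 to 12.4), 1.64-fold for otpb:GFP (interval 0.300 to 8.99), 1.53-fold at 36 h (interval 1.43 to 1.65) and 1.52-fold at 48 h (interval 1.41 to 1.64). At 72 h it was 22.5-fold (interval 2.43 to 274.9) and at 96 h 2.37-fold (interval 0.553 to 12.0). The intervals of 4 experiments excluded no change, and those for otpb:GFP and 96 h did not.

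The same held for gap43 per elavl3 read, higher in 6 of 6 experiments with 4 intervals above no change. Its changes were 2.63-fold for vmat2:GFP (interval 1.47 to 4.76), 1.85-fold for otpb:GFP (interval 0.973 to 3.52), 1.64-fold at 36 h (interval 1.50 to 1.79), 1.72-fold at 48 h (interval 1.61 to 1.84), 22.5-fold at 72 h (interval 3.46 to 233.4) and 2.71-fold at 96 h (interval 0.637 to 13.6). At 36 h and 48 h, the deepest experiments, elavl4 and gap43 thus gained 1.52-fold to 1.72-fold on elavl3. The 48 h gain was not particular to them, since atp1a3a gained 1.96-fold and stmn1b 1.27-fold there. Genes above the minimum with a lower log2 ratio than elavl3 were 17.1% for vmat2:GFP, 31.9% at 36 h and 3.15% at 48 h. They were 17.8% at 72 h, 1.97% at 96 h and 74.6% for otpb:GFP. Most genes thus gained on elavl3 in every experiment but otpb:GFP, so such gains are not particular to elavl4 and gap43. Both 22.5-fold values rest on the same 2 GFP-positive elavl3 reads.

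The other 2 genes gained on elavl3 at 48 h too, but each was higher in only 4 of 6 experiments. Reads of atp1a3a per elavl3 read changed 9.62-fold for vmat2:GFP (interval 4.77 to 20.9), 0.580-fold for otpb:GFP (interval 0.182 to 1.60), 0.980-fold at 36 h (interval including no change) and 1.96-fold at 48 h (interval 1.81 to 2.12). At 72 h and 96 h the change was 6.75-fold (interval 1.02 to 73.1) and 4.33-fold (interval 0.994 to 21.9). Reads of stmn1b per elavl3 read changed 0.411-fold for vmat2:GFP and 0.858-fold at 36 h, and 7.58-fold for otpb:GFP, 1.27-fold at 48 h, 3.00-fold at 72 h and 5.54-fold at 96 h, with 2 intervals below no change, 3 above it and the 72 h one across it.

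**Figure D4:**
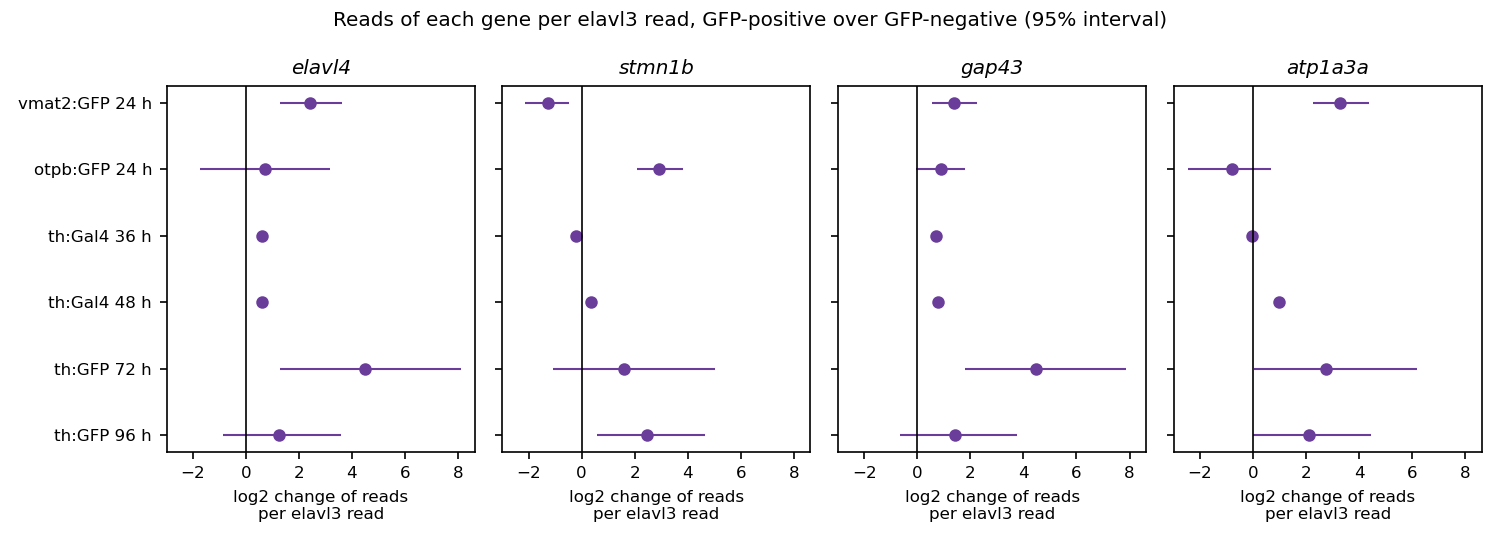
Log2 change, GFP-positive over GFP-negative, of the reads of each gene per elavl3 read in the 6 experiments, with exact 95% conditional intervals as bars. The points of elavl4 and gap43 lie right of 0 in all 6 experiments (0.60 to 4.49 and 0.71 to 4.49), while stmn1b runs from -1.28 to 2.92 and atp1a3a from -0.79 to 3.27. The elavl3 share of the summed reads fell in all 6 experiments, so the other genes together had to gain on elavl3. Most genes above the minimum also gained on elavl3 in every experiment but otpb:GFP.

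Whether a gene moved with the sort over all lines and ages was tested with edgeR's quasi-likelihood test on the 12 libraries, with the experiment as a block and Benjamini-Hochberg adjustment over 14086 genes. It called 165 genes (1.17%), 149 higher (1.06%) and 16 lower (0.114%), and none of the 5 genes was among them. At an unadjusted p under 0.05 there were 1095 genes, elavl3 the only one of the 5. DESeq2 called 57 genes and also none of the 5.

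For elavl3 the fitted log2 change was -0.91 ± 0.36 (SE, 6 pairs), lower in 5 of 6 experiments. Each SE of these fits was worked back from the change and the F statistic of edgeR's test, and was not estimated separately. The unadjusted p of elavl3 was 0.015 and the adjusted p 0.384 from edgeR's test. Its adjusted p lay between 0.136 and 1.00 over 10 other fits, and an exact two-sided sign-flip test over the 6 pairs gave p = 0.0625, where the smallest possible p is 0.03125. The fitted changes of the others were 0.36 ± 0.39 for elavl4 (adjusted p = 0.951), -0.23 ± 0.43 for stmn1b (adjusted p = 0.972), 0.46 ± 0.36 for gap43 (adjusted p = 0.900) and 0.25 ± 0.37 for atp1a3a (adjusted p = 0.967), all from edgeR's test. In the same fit th, the tyrosine hydroxylase gene, rose by 3.55 ± 0.76 (adjusted p = 0.0046, higher in 6 of 6 experiments).

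Close relatives of the 5 genes put these values in their families. Of the Elavl relatives 1 of 4 names matched, elavl1 (HuR), the family member expressed in all tissues. The elavl4 share of elavl1, elavl3 and elavl4 reads went from 2.87% to 10.5% for vmat2:GFP, from 8.21% to 12.0% at 36 h, from 7.29% to 9.35% at 48 h and from 10.7% (3 of 28 reads) to 65.2% (15 of 23 reads) at 72 h. For otpb:GFP it was 1.11% (4 of 359) and 2.13% (4 of 188), and at 96 h 48.7% (19 of 39) and 44.4% (12 of 27). In both of these pairs the intervals overlap.

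Among stathmins, the paralog stmn1a held most reads up to 48 h. It had 909 GFP-negative and 597 GFP-positive reads for vmat2:GFP, of which 908 and 597 were uniquely placed, so its reads were not the ones shared with stmn1b. Its log2 ratio was -0.88 for vmat2:GFP (interval -1.03 to -0.73) and 0.45 for otpb:GFP (interval 0.29 to 0.62), the same signs as stmn1b with smaller sizes. It was 0.41 at 36 h, -0.67 at 48 h, -1.65 at 72 h (29 and 6 reads) and -1.14 at 96 h (32 and 16 reads), and the 36 h value became -0.33 by library size. The neuronal stathmin stmn2a had 4 and 28 reads for vmat2:GFP, a ratio of 2.10 (interval 1.02 to 4.50), opposite to stmn1b in the same libraries. Its paralog stmn2b had 5 and 0 reads there. At 36 h and 48 h stmn2a was at -0.27 and -0.61, below 0 as stmn1b was.

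The pump family showed the widest gap from the member atp1a3a. At 48 h the alpha subunit gene atp1a1a.2 had 1210 GFP-negative and 76262 GFP-positive reads, a log2 ratio of 5.99 (interval 5.91 to 6.07), and the beta subunit gene atp1b1b 1220 and 45785, a ratio of 5.24 (interval 5.16 to 5.32). Alpha subunit shares are of the 8 alpha genes matched by name, and the names atp1a3b and atp1a1a.1 found no match. The atp1a3a share of these alpha subunit reads was 25.3% in the negative and 1.55% in the positive library at 48 h. At 36 h it was 19.9% and 7.18%, while its own log2 ratio was -0.27 at 48 h and -0.44 at 36 h. For vmat2:GFP atp1a3a made up 5.07% and 11.6% of alpha subunit reads, and atp1a1a.2 2.30% and 16.4% (5 and 93 reads). The vmat2:GFP rise was not particular to atp1a3a (2.14). Of the 8 other pump subunits above the minimum there, 5 were at least 2-fold higher and 1 lower, with a median log2 ratio of 2.16. Of all genes there, 24.9% were higher and 15.7% lower.

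Over the 6 experiments edgeR's test called atp1a1a.2 (3.43 ± 0.61, adjusted p = 3.5e-04, higher in 4 of 6) and atp1b1b (2.40 ± 0.62, adjusted p = 0.031, higher in 4 of 6), the 2 called among 12 pump subunits fitted. The atp1a1a genes are near-identical tandem copies, so the split of reads among them is uncertain. In zebrafish skin atp1b1b and atp1a1a copies are known from ionocytes, the salt-transporting cells of the body surface.

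**Figure D5:**
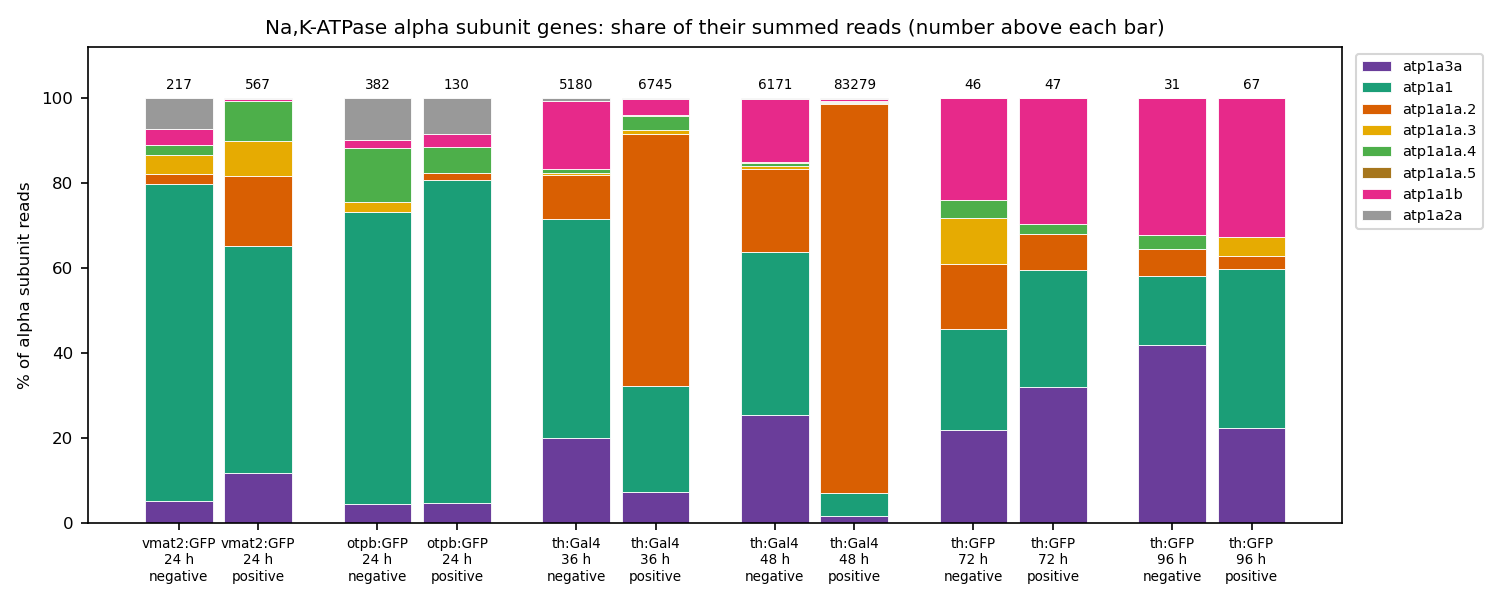
Share of each of the 8 alpha subunit genes matched by name in their summed reads, in percent, for the 12 libraries, with the number of reads above each bar. At 48 h atp1a1a.2 fills 91.6% of the GFP-positive bar and 19.6% of the GFP-negative bar, and atp1a3a (bottom) 1.55% and 25.3%.

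Other neuronal genes leaned the way of the 5 in the th:Gal4 fish at 48 h. Of axon growth and cytoskeleton genes, 16 of 22 matched passed the minimum, 0 were at least 2-fold higher and 4 lower, with a median log2 ratio of -0.78. They included marcksa (4176 and 1889 reads, -1.13), a membrane-bound regulator of actin, and inab (2522 and 1178 reads, -1.09), a neuronal intermediate filament gene. Of synaptic genes 10 passed, 0 were higher and 3 lower, with a median of -0.78, among them snap25a (1952 and 931 reads, -1.06) of the vesicle fusion machinery. Of other neuronal differentiation genes 19 passed, 2 were higher and 6 lower, with a median of -0.93. Of neural progenitor genes 17 passed, 0 were higher and 7 lower, with a median of -0.96, among them the Notch ligand gene dla (12629 and 5119 reads, -1.29). Beside these, the 10030 genes above the minimum had a median of -0.08, with 17.6% at least 2-fold higher and 6.53% lower.

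In the vmat2:GFP pair, where 24.9% of all genes were at least 2-fold higher and 15.7% lower, axon growth and cytoskeleton genes had 4 of 13 higher and 2 lower (median -0.13), shares near those of all genes, with inab at 1 and 27 reads and marcksb at 377 and 155 (-1.55). Other neuronal differentiation genes had 2 of 10 higher and 4 lower (median 0.26), with insm1a at 24 and 3 reads (-2.59) and neurod4, a bHLH gene of differentiating neurons, at 51 and 9 (-2.52), and 6 of 15 progenitor genes were lower and 0 higher (median -0.98), with sox19a at 135 and 19 reads (-2.97). Of 3 synaptic genes above the minimum 1 was 2-fold higher, snap25a, with 10 and 31 reads (1.21, interval 0.29 to 2.55).

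For otpb:GFP, beside 10.2% of all genes higher and 25.8% lower, 3 of 9 axon growth and cytoskeleton genes were higher and 1 lower (median 0.03), with dpysl5a, a collapsin response mediator of growth cones, at 54 and 75 reads (1.46, interval 0.98 to 2.04). Of other neuronal differentiation genes 2 of 5 were higher and 0 lower, rtn1b (2 and 26 reads, 3.57, interval 2.73 to 7.85) and tmsb (19 and 41 reads, 2.00, interval 1.32 to 3.01), although the list's median was -0.25. At 36 h, beside 13.9% of all genes higher and 10.4% lower, the axon list had 1 of 17 higher and 2 lower (median -0.29), the other neuronal list 1 of 21 and 3 (median -0.50), the synaptic list 0 of 10 in either direction (median -0.33) and the progenitor list 0 of 18 and 2 (median -0.32).

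At 72 h too few listed genes passed the minimum for counts, so sums are given. Axon growth and cytoskeleton genes summed to 95 GFP-negative and 123 GFP-positive reads (log2 ratio 0.74, interval 0.34 to 1.14) and synaptic genes to 38 and 77 (1.38, interval 0.81 to 1.98). Progenitor genes summed to 207 and 209 (0.38, interval 0.09 to 0.66), of which fabp7a alone held 128 and 164 (0.71, interval 0.38 to 1.07). The other progenitor genes together had fewer GFP-positive than GFP-negative reads. The axon and synaptic sums lay on the side of the 5-gene sum, and the progenitor sum did so through fabp7a. Among the 5 genes, elavl3 and stmn1b themselves had ratios below 0 there. At 96 h the axon and synaptic sums were 146 and 214 (0.31, interval -0.004 to 0.62) and 107 and 118 (-0.10, interval -0.49 to 0.29). Over the 6 experiments edgeR's test called 0 of 21 axon, 0 of 22 other neuronal, 0 of 11 synaptic and 0 of 18 progenitor genes.

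Transcripts of other tissues moved with the sort in the same libraries. Summed keratin and other epidermal markers took 0.389% of GFP-negative and 4.44% of GFP-positive exon reads at 36 h, and 0.481% and 8.37% at 48 h, with all 7 matched markers higher in the positive library at both ages. Hatching gland markers had 2100 and 266358 reads at 36 h and 6109 and 109896 at 48 h. Heart markers had 106 and 32645 reads at 36 h and 431 and 6049 at 48 h. Islet markers had 302 and 6029 reads at 36 h but 1081 and 299 at 48 h. Skeletal muscle markers had 3999 and 3151 reads at 36 h, with 1 of 5 higher in the positive library, and 7645 and 21240 at 48 h, with 5 of 5 higher. The direction of the 36 h muscle sum depends on the scaling. It was lower in the positive library by library size (187.5 and 138.3 CPM). After TMM scaling its log2 ratio was 0.30 (interval 0.24 to 0.37). Red cell markers had fewer reads in the positive library at both ages, with 371467 and 41297 reads at 36 h and 1521471 and 87260 at 48 h. Leukocyte markers at 36 h (3514 and 754) and lens markers at 48 h (9747 and 1794) were fewer there too. These are the experiments in which elavl3 was 1.33-fold and 2.36-fold lower in the positive libraries after TMM scaling, whereas the marker reads are unscaled.

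For vmat2:GFP the positive library held 1321 reads of leukocyte markers against 5 (7 of 7 higher), 1882 of endothelial markers against 88 (5 of 5 higher) and 2080 of heart markers against 31 (5 of 6 higher). It also held more of hatching gland markers (696 against 67, 4 of 4 higher). Skeletal muscle markers (137 against 383) and glial markers (121 against 408) were fewer there. For otpb:GFP the positive library held more reads of hatching gland markers (869 against 199, 4 of 4 higher) and heart markers (214 against 167, 4 of 6 higher) and fewer of endothelial markers (83 against 455, 1 of 5 higher). At 72 h, where gap43 was 5.24-fold higher, the positive library held fewer reads of skeletal muscle markers (33 against 224) and epidermal markers (87 against 600), and more of red cell markers (353 against 133). Glial markers summed to 161 and 197 reads there (log2 ratio 0.66) and to 54715 and 29885 at 48 h (-0.86). Of the 72 h glial reads, 128 and 164 were of fabp7a, which is also on the progenitor list. At 96 h the positive library held fewer reads of skeletal muscle markers (64 against 167) and hatching gland markers (4 against 19). Epidermal markers had 496 against 399 reads there. Not every marker list is named for every experiment. The part of these transcripts in the ratios of the 5 genes was not tested.

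The genes with the most similar pattern were sought by the smallest root mean square difference of log2 ratios over the experiments where a member had at least 10 reads. For elavl4, over 5 experiments and 1007 candidate genes, they were kdm6bb (0.40) and ube2i2 (0.42), and the third of the 1007 was gap43 (0.44), while elavl3 came 866th (1.85). For elavl3, over 6 experiments and 956 candidates, they were zgc:73265 (0.45) and setb (0.46). For gap43 they were arnt2 (0.50) and kidins220b (0.55), for atp1a3a grb2 (0.43) and eif4ebp2 (0.49), and for stmn1b zgc:100869 (0.61) and pcdh1g30 (0.61). The distance from elavl3 to its nearest fellow member, stmn1b, was 1.53, above the median of 1.22 over all candidates.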

How the data were processed

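Reads were counted per gene by the authors. Per the file headers, the vmat2:GFP table holds total and unique exon read counts and RPKM for both libraries on Zv9; the aligner is not given in the sources used here. The other 5 tables name no library over their 174 library columns, which were not used. Their deposited signed difference and fold scores of RPKM were turned into RPKM levels and then, by exon length and the worth of 1 read, into reads, all whole within 0.02. For vmat2:GFP this returned the deposited counts in all 17237 features compared. The design had assumed counts by library.

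Ratios were scaled by TMM within a pair (edgeR 4.0.16, R 4.3.3; prior count 2) with exact Clopper-Pearson intervals (SciPy). Within an experiment, genes were counted at 2-fold with 5 CPM and 20 reads. In the fits over the experiments, called meant an adjusted p under 0.05, with no fold or CPM rule. The quasi-likelihood fit took genes with 10 reads in 4 libraries, and DESeq2 1.42.0 was an alternative. The fits were tested on simulated data. The 5 genes, the 7 related lists and the 11 marker lists were chosen with earlier results of these data known. Named list genes had the largest ratios whose interval excluded 0, up to 4 per list and experiment, and 2 genes of similar pattern were named per member. Comparisons with elavl3, family shares and sums without stmn1b were added after the data were seen. Sequences were not analysed here.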

Additional observations from a re-analysis of the deposited data

Results flagged for a closer look

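Of the 5 genes, 4 had ratios with intervals on opposite sides of 0 in different experiments. None of these differences was tested, since each experiment holds 1 library per sort. The log2 ratio of stmn1b was 5.18 higher for otpb:GFP at 24 h (3.06) than for vmat2:GFP at 24 h (-2.12), on reads of which few were uniquely placed in the vmat2:GFP table.

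The ratio of gap43 was 2.85 higher at 72 h (2.39) than at 48 h (-0.45). That of elavl4 was 2.67 higher at 72 h (2.04, on 3 and 15 reads) than at 48 h (-0.63). Both comparisons set a th:GFP BAC pair of low depth against a deep th:Gal4 pair. The ratio of atp1a3a was 2.57 higher for vmat2:GFP at 24 h (2.14) than for th:Gal4 at 36 h (-0.44), which also crosses NanoCAGE with mRNA sequencing. The part of line, age, assay and depth was not tested.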

How the results depend on the processing

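The pairing within an experiment was part of the fit, with the experiment as its block, and no block of replicates could be added because each group holds 1 library. The count of genes called moved from 165 to 281 with no filter, 659 in the mRNA sequencing experiments alone, 57 with DESeq2, and between 5 (without th:Gal4 48 h) and 376 (without vmat2:GFP) on leaving out 1 experiment, with 15 without th:Gal4 36 h. The genes fitted also fell, from 14086 to 7445 without th:Gal4 36 h and to 7471 without th:Gal4 48 h. Fewer genes fitted and a loss of signal cannot be told apart in those 2 fits. None of the 5 genes was called in any of these fits. On leaving out 1 experiment the fitted change of stmn1b lay between -0.77 and 0.22 and that of atp1a3a between -0.10 and 0.53. The change of stmn1b turned to 0.22 without vmat2:GFP and 0.0041 without th:Gal4 48 h, and that of atp1a3a to -0.10 without vmat2:GFP and -0.037 in the mRNA sequencing experiments. The cause was not tested.

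Counts of genes 2-fold higher were 1 in place of 2 for both vmat2:GFP and otpb:GFP at a minimum of 10 CPM and 50 reads. With no minimum, 72 h had 2 higher and 1 lower, and 96 h 1 lower. By library size alone 36 h had 3 lower. Summed ratios by library size were 0.19 for vmat2:GFP, 1.36 for otpb:GFP, -1.09 at 36 h and -0.85 at 48 h. Without the gene of most reads they were 0.091, 1.96, -0.25 and -0.71, and 0.50 at 72 h. Without stmn1b, an alternative chosen after seeing the data, they were -0.13, 0.41, -0.29, -1.02, 1.63 at 72 h and -0.81 at 96 h. At 72 h and 96 h most members had fewer than 20 reads, so changes under several fold were not detectable.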
